A study of Homo sapiens with 12 samples.

Results

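Cohesin is the protein ring that holds sister chromatids together from DNA replication until anaphase and also folds interphase chromatin into loops. Its core is a pair of SMC proteins closed by the kleisin RAD21, with one STAG subunit bound to RAD21. NIPBL loads the ring, PDS5 proteins and WAPAL control its release from chromatin, and separase (ESPL1) cuts RAD21 at anaphase. RBMX, a nuclear RNA-binding protein that regulates splicing, is known to be needed for sister chromatid cohesion, so its overexpression raises the question of whether the mRNAs of the cohesin machinery change. The 10 genes described here were taken by symbol from the 25268 gene symbols with expression values: the ring genes SMC1A, SMC3, RAD21, STAG1 and STAG2, the loader gene NIPBL, the regulator genes PDS5A, PDS5B and WAPAL (now named WAPL), and ESPL1.

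All libraries came from HEK293, an established human embryonic kidney cell line. The RBMX group was transiently transfected, using Lipofectamine2000, with 2 µg of pCMV6-HIS-HA-RBMX, a plasmid that expresses tagged RBMX from a viral promoter. The control group, labelled wild type, received the mock empty vector. In both groups cells were exposed to cycloheximide, which stalls ribosomes on mRNAs, and the cleared lysate was separated on a sucrose gradient. Nuclei had been removed, so both kinds of RNA are cytoplasmic. Polysomal RNA came from the fractions that hold mRNAs with several ribosomes, and total RNA was a pool of a fixed share of every fraction. Each group had 3 replicates, called cultures here, with 1 total and 1 polysomal library each, 12 libraries in all, made from 500 ng of RNA. Transfection was transient, so cells that took up different amounts of plasmid are averaged, and a lower value in a bulk sample cannot tell fewer cells expressing a gene from less RNA per cell.

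Values are FPKM, sequenced fragments divided by transcript length and library size, and how many fragments lie behind them is unknown. RBMX itself followed the labels, with 108 to 147 FPKM in control total RNA and 1460 to 2073 in RBMX total RNA (log2 fold change 3.71, limma adjusted p = 0.00269). In polysomal RNA the RBMX log2 fold change was 3.25 (limma adjusted p = 0.0415). The HEK293 markers VIM, PAX2, NEFM, KRT18 and KRT8 were detected in every library, whereas PTPRC, ALB, COL1A2 and PECAM1, which mark blood, liver, fibroblast and endothelial cells, had mean FPKM of 0.00771, 0.113, 0.00469 and 0.0181. Control replicate 3 stood apart in both fractions. Its lowest Spearman correlation with another control replicate was 0.980 for the total and 0.976 for the polysomal library, against 0.997 and 0.998 between control replicates 1 and 2. It had the lowest value of the 3 control replicates for 10 of the 10 cohesin genes in both fractions, a pattern shared by 41.2% of the genes tested in the total and 45% in the polysomal libraries. The cohesin genes in its total library had 60.3% to 90.6% of the mean of control replicates 1 and 2, and those in its polysomal library 49.5% to 98.0%. Proliferation genes were also low there, 13 of 13 below both other control replicates in each fraction, with a median of 70.4% and 58.9% of their mean. The 5 HEK293 markers were below both as well, at medians of 47.0% and 49.1%. The comparisons of the cohesin genes and of the related gene lists are therefore given with and without this replicate. The RBMX polysomal libraries were not uniform either. Replicate 2 had a lowest Spearman correlation of 0.983 with another RBMX replicate. It was below both others for 44.5% of the genes tested, small RNA genes left out. Of the 10 cohesin genes 4 were below and 4 above both others there.

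Comparisons were made with limma on log2(FPKM + 1) values of 14676 genes, those whose FPKM averaged 0.5 or more, and a gene passed at a Benjamini-Hochberg adjusted p up to 0.05. All 10 cohesin genes were above that minimum.

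Ring genes other than STAG1 held the top of the order of levels. Over the 12 libraries SMC1A had the highest mean at 58.9 FPKM, followed by RAD21 at 57.1, STAG2 at 40.4, SMC3 at 29.7, WAPAL at 24.7, PDS5A at 21.9, ESPL1 at 16.3, NIPBL at 11.3, STAG1 at 8.25 and PDS5B at 5.83. SMC1A and RAD21 did not differ beyond their spread: SMC1A was the higher in 8 of 12 libraries, and their replicates overlapped in each of the 4 groups. Every other pair of neighbours kept its order in 11 or 12 of 12 libraries, and their replicates were apart in 2 to 4 of the 4 groups. Of the paralog pairs, STAG2 stood above STAG1 and PDS5A above PDS5B in every library.

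**Figure D1:**
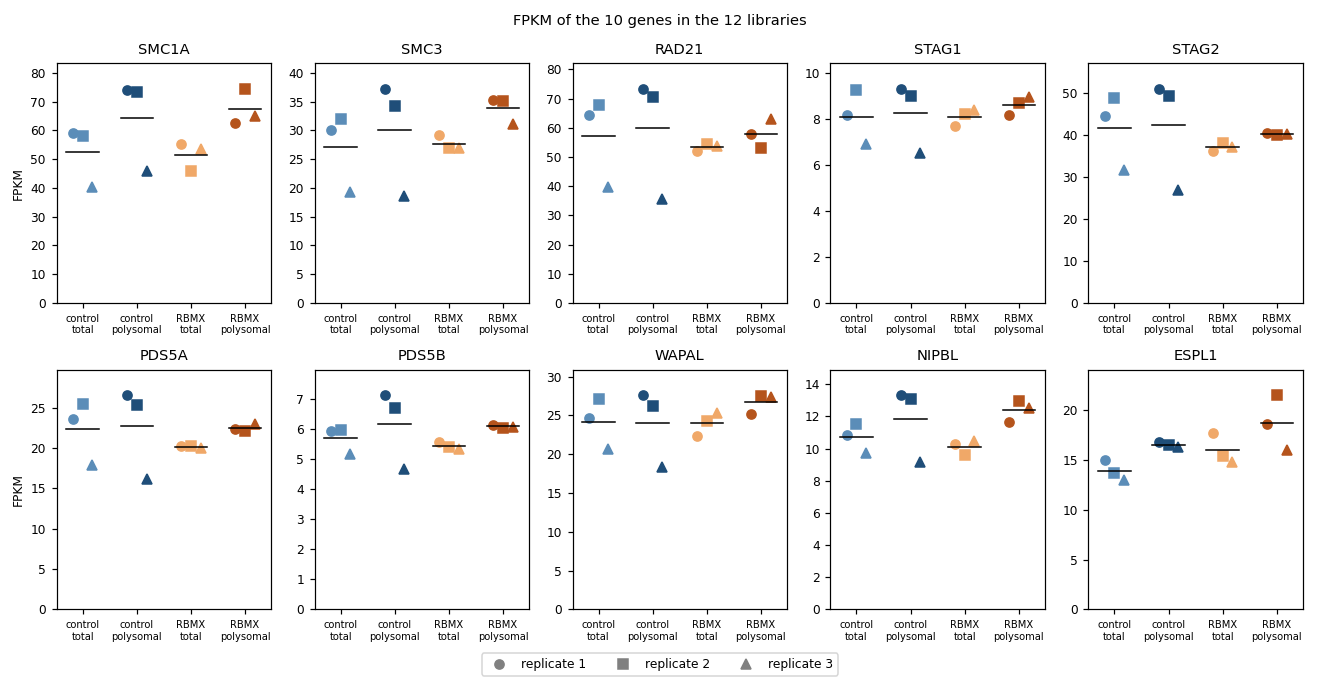
FPKM of each of the 10 genes (vertical axis, starting at 0, own range per gene) in the 4 groups on the horizontal axis; each symbol is 1 library, its shape the replicate, and the line the mean of 3. Control replicate 3 (triangles) is the lowest control library for all 10 genes, while the RBMX replicates lie closer together for most.

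SMC1A (chromosome X, 53374149 to 53422728 on the minus strand of GRCh38) encodes one of the SMC proteins of the ring. In total RNA its FPKM was 59.0, 57.9 and 40.3 in control replicates 1 to 3 and 55.1, 46.1 and 53.7 in RBMX replicates 1 to 3. In polysomal RNA it was 73.9, 73.3 and 45.7 in control and 62.6, 74.5 and 64.9 in RBMX replicates. Control replicate 3 was the lowest library in each fraction, and the groups overlapped. With RBMX the log2 fold change was -0.01 (95% interval -0.43 to 0.41) in total and 0.09 (-0.43 to 0.62) in polysomal RNA.

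SMC3, the SMC partner of SMC1A in the ring, lies on chromosome 10 (110567691 to 110604636, plus strand, GRCh38). Its total FPKM was 30.1, 32.0 and 19.3 in control and 29.2, 26.9 and 26.8 in RBMX replicates. Its polysomal FPKM was 37.2, 34.3 and 18.6 in control and 35.3, 35.2 and 31.1 in RBMX replicates. The RBMX libraries fell between the low control replicate and the other two in total RNA. The log2 fold changes were 0.06 (-0.43 to 0.54) and 0.22 (-0.44 to 0.89).

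RAD21, on chromosome 8, encodes the kleisin that closes the ring and is the substrate of separase. In total RNA it had 64.4, 67.8 and 39.8 FPKM in control and 52.2, 54.4 and 53.7 in RBMX replicates. In polysomal RNA it had 73.4, 70.5 and 35.6 in control and 58.1, 53.0 and 62.9 in RBMX replicates. In both fractions every RBMX library was below control replicates 1 and 2 and above control replicate 3. Its log2 fold change was -0.06 (-0.58 to 0.45) in total and 0.02 (-0.71 to 0.75) in polysomal RNA, the widest intervals among the 10 genes.

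STAG2 (chromosome X, 123960212 to 124422664, plus strand, GRCh38) is the more highly expressed of the alternative STAG subunits here. Its total FPKM was 44.5, 48.7 and 31.6 in control and 36.2, 38.0 and 37.1 in RBMX replicates. Its polysomal FPKM was 51.0, 49.2 and 27.0 in control and 40.6, 40.1 and 40.3 in RBMX replicates. The RBMX libraries again lay between the low control replicate and the other two, and the polysomal ones differed by less than 1 FPKM. Its log2 fold changes were -0.14 (-0.55 to 0.27) and -0.02 (-0.65 to 0.61). STAG1, its paralog on chromosome 3, ranged from 6.51 to 9.29 FPKM over the 12 libraries, with log2 fold changes of 0.01 (-0.26 to 0.28) and 0.06 (-0.29 to 0.41).

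NIPBL, the loader gene on chromosome 5 (36876759 to 37066413, plus strand, GRCh38), had 10.9, 11.5 and 9.75 FPKM in control and 10.3, 9.59 and 10.5 in RBMX total RNA. In polysomal RNA it had 13.3, 13.1 and 9.20 in control and 11.6, 13.0 and 12.5 in RBMX replicates. The groups overlapped in both fractions. The log2 fold changes were -0.07 (-0.27 to 0.12) and 0.07 (-0.31 to 0.45).

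Of the genes that act on the ring once loaded, PDS5A (chromosome 4, 39822863 to 39977956, minus strand, GRCh38) had 23.5, 25.4 and 17.9 FPKM in control and 20.3, 20.3 and 20.0 in RBMX total RNA. In polysomal RNA it had 26.5, 25.3 and 16.2 in control and 22.3, 22.1 and 22.9 in RBMX replicates. The RBMX replicates lay nearly on one another, between control replicate 3 and the other two. PDS5B (chromosome 13, 32586427 to 32778019, plus strand, GRCh38), the least expressed of the 10, had 5.93, 5.95 and 5.18 FPKM in control and 5.55, 5.40 and 5.32 in RBMX total RNA. Its polysomal FPKM was 7.12, 6.68 and 4.66 in control and 6.11, 6.04 and 6.08 in RBMX replicates. It showed the same arrangement as PDS5A. WAPAL, which opens the ring and lies on chromosome 10, ranged from 18.4 to 27.6 FPKM over the 12 libraries. With RBMX the log2 fold changes in total and polysomal RNA were -0.12 and 0.02 for PDS5A, -0.06 and 0.00 for PDS5B, and 0.00 and 0.16 for WAPAL, and each 95% interval included 0.

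ESPL1 (chromosome 12, 53268299 to 53293643, plus strand, GRCh38), the protease gene, was the least lowered of the 10 in control replicate 3. It had 15.0, 13.6 and 13.0 FPKM in control and 17.6, 15.4 and 14.8 in RBMX total RNA. In polysomal RNA it had 16.8, 16.5 and 16.3 in control and 18.6, 21.5 and 16.0 in RBMX replicates. The control replicates lay close together, and RBMX replicate 3 lay within their range in total RNA and below it in polysomal RNA. The total RNA change of 0.19 (-0.04 to 0.41, limma adjusted p = 0.331) was the largest of the 10 there in absolute value, and the polysomal one was 0.16 (-0.12 to 0.44, limma adjusted p = 0.580). Over 17 alternatives the adjusted p ranged from 0.223 to 0.701 for the total and from 0.275 to 0.907 for the polysomal comparison.

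None of the 10 cohesin genes passed with RBMX overexpression in total RNA, where 0.164% of all genes did (limma), and 0 had an unadjusted p under 0.05, against 18.8% of all genes. In polysomal RNA 0 of 10 passed against 0.0477% of all genes, and 0 had an unadjusted p under 0.05 against 11.7%. For 0 of 10 did the groups stay apart, against 27.3% of all genes in the total and 22.5% in the polysomal libraries. In the total libraries the median log2 fold change of the 10 was -0.03, with 3 values above 0, and in the polysomal libraries it was 0.07, with 9 above 0. Of all genes 49.7% and 49.5% were above 0, with a median of 0 in both fractions. The limma adjusted p of single cohesin genes stayed between 0.118 and 1 for the total and between 0.234 and 1 for the polysomal comparison over the 17 alternatives. The directions were less stable: a correction for transcript length and GC content turned the total RNA fold change positive for SMC1A, RAD21, STAG2, PDS5B, WAPAL and NIPBL, with values from 0.02 to 0.11.

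**Figure D2:**
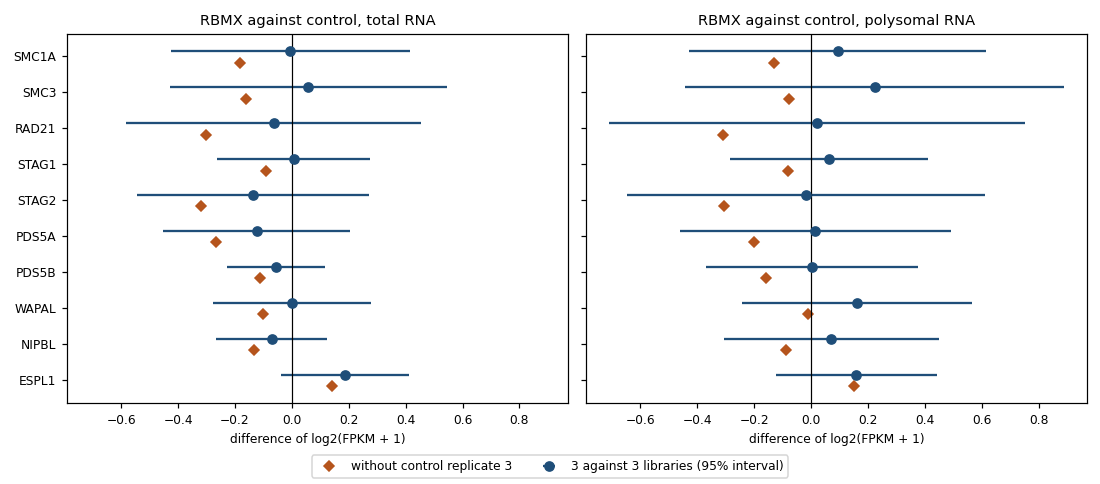
Difference of log2(FPKM + 1) between RBMX and control (horizontal axis) for the 10 genes in total RNA (left) and polysomal RNA (right); circles with lines are the 3 against 3 libraries with the 95% interval, diamonds the value without control replicate 3. Each interval includes 0, and without control replicate 3 the values of 9 genes are below 0 in both fractions while ESPL1 stays at 0.14 and 0.15.

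In polysomal RNA the direction of most cohesin genes turned on control replicate 3, and in total RNA that of SMC3 and STAG1. Control replicate 3 was the lowest control library for 10 of 10 cohesin genes in both fractions. Leaving it out therefore raised each control mean and lowered each fold change by construction. Among all genes it was the lowest for 41.2% in total and 45% in polysomal RNA, so the shares of all genes here are not a like background. Without this replicate, 9 of 10 were lower in RBMX than in control cells in total RNA, against 52.8% of all genes. With it 7 of 10 were already lower there. In polysomal RNA the same 9 were lower without it, against 56.1% of all genes, and 1 of 10 with it. The exception was ESPL1. The RBMX libraries were then entirely below the 2 remaining control libraries for 7 genes in total RNA (SMC1A, SMC3, RAD21, STAG2, PDS5A, PDS5B and NIPBL), as for 26.5% of all genes. In polysomal RNA this held for 6 (RAD21, STAG1, STAG2, PDS5A, PDS5B and NIPBL), as for 26.2% of all genes. The largest differences in total RNA were -0.32 for STAG2 (standard error 0.05, limma adjusted p = 0.124), -0.30 for RAD21 (0.04, 0.118) and -0.27 for PDS5A (0.05, 0.124). In polysomal RNA they were -0.31 for RAD21 (0.09, 0.252), -0.31 for STAG2 (0.04, 0.234) and -0.20 for PDS5A (0.05, 0.246). Unadjusted p-values were under 0.05 for SMC3, RAD21, STAG2 and PDS5A in total RNA, against 14.3% of all genes that were lower at that p. In polysomal RNA they were under 0.05 for RAD21, STAG2, PDS5A and PDS5B, against 9.32%. Still 0 of 10 passed in either fraction, where 0.273% and 0.075% of all genes did. The deviation of control replicate 3 from its group was correlated with transcript length across genes, with Spearman rho of -0.177 for the total and -0.334 for the polysomal library, a description over genes, which are not independent replicates. In the other 10 libraries this rho ran from -0.338 to 0.346. The longest coding transcripts of the 10 cohesin genes run from 3749 to 10435 bases with a median of 6478, longer than the median of 3316 for the genes tested. The part of transcript length in the low values of control replicate 3 was not tested.

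Total RNA is described as a pool of the gradient's fractions, so polysomal and total libraries with the same number were read as 1 culture and their difference was also taken within each of 6 cultures. The labels also mention more than 1 dish for these extractions, so this pairing is not certain, and the counts of cultures, the sign-flip tests and the culture block rest on it. For 10 of the 10 cohesin genes the mean of the control and RBMX differences was above 0, that is, higher in polysomal RNA, as for 49.4% of all genes. Their median log2 difference was 0.09, against 0.00 over all genes. None of the 10 passed (limma), where 6.61% of all genes did, 219 higher and 751 lower. With quantile normalization that split was 586 higher and 517 lower. Unadjusted p-values were under 0.05 for SMC1A, NIPBL and ESPL1, each higher in polysomal RNA, as for 9.4% of all genes.

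Without correction the difference was largest for SMC1A. On the log2 scale its polysomal minus total difference was 0.32, 0.33 and 0.18 in control cultures 1 to 3 and 0.18, 0.68 and 0.27 in RBMX cultures 1 to 3. It was positive in 6 of 6 cultures, as in 16% of all genes, with the highest value in RBMX culture 2 (two-sided exact sign-flip permutation test p = 0.03125, the smallest that 6 cultures allow). The mean of both groups was 0.33 (95% interval 0.01 to 0.64, limma adjusted p = 0.193). With each culture as a block, SMC1A passed at the same difference of 0.33 (standard error 0.07, limma adjusted p = 0.0371), as the only cohesin gene, in a fit where 17.6% of all genes passed. Correction for length and GC content reduced the difference to 0.20 (limma adjusted p = 0.325), below that of SMC3 at 0.28. The adjusted p of SMC1A ranged from 0.0164 to 0.850 over 19 alternatives.

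ESPL1 differed by 0.15, 0.26 and 0.31 in control and by 0.07, 0.46 and 0.10 in RBMX cultures 1 to 3. It was higher in polysomal RNA in 6 of 6 cultures (exact sign-flip p = 0.03125), and it was the one cohesin gene whose control polysomal libraries were all above the control total libraries, as for 7.63% of all genes. Its mean difference was 0.22 (0.06 to 0.39, limma adjusted p = 0.0954, with the culture block 0.0518). Correction for length and GC content reduced it to 0.07, and its adjusted p ran from 0.0518 to 0.597 over 19 alternatives.

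NIPBL and SMC3 were higher in polysomal RNA in 5 of 6 cultures, with control culture 3 as the exception. NIPBL differed by 0.27, 0.17 and -0.08 in control and by 0.16, 0.40 and 0.23 in RBMX cultures. SMC3 differed by 0.30, 0.10 and -0.05 in control and by 0.27, 0.37 and 0.21 in RBMX cultures. Both exact sign-flip p-values were 0.0625. The means were 0.19 for NIPBL (0.00 to 0.39, limma adjusted p = 0.206) and 0.20 for SMC3 (-0.19 to 0.59, limma adjusted p = 0.547). With the culture block the adjusted p was 0.0651 and 0.0506, and over 19 alternatives it ran from 0.0115 to 0.937 and from 0.0231 to 0.996.

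The other 6 cohesin genes had mean polysomal minus total differences of 0.05 to 0.11 with 95% intervals that included 0. PDS5B and STAG2 were higher in polysomal RNA in 5 of 6 cultures, and RAD21, STAG1, PDS5A and WAPAL in 4 of 6. Control culture 3 was below 0 for each of these 6 genes, down to -0.22 for STAG2. Their exact sign-flip p-values ran from 0.0938 for PDS5B to 0.406 for STAG2.

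**Figure D3:**
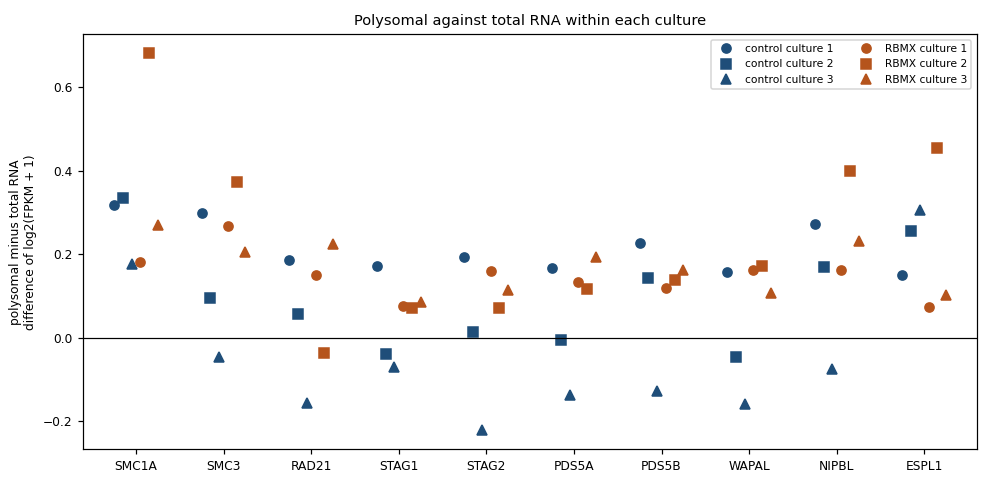
Polysomal minus total difference of log2(FPKM + 1) (vertical axis) for the 10 genes in each of the 6 cultures; blue is control, orange RBMX, and the shape gives the culture. SMC1A and ESPL1 are above 0 in all 6 cultures, and control culture 3 (blue triangles) is below 0 for the other 8 genes.

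Without control replicate 3, 5 of 10 cohesin genes passed as higher in polysomal RNA, as did 6.55% of all genes. These were SMC1A (0.35, standard error 0.07, limma adjusted p = 0.0164), SMC3 (0.24, 0.05, 0.0231), NIPBL (0.24, 0.04, 0.0115), PDS5B (0.16, 0.03, 0.0132) and PDS5A (0.11, 0.03, 0.0482). STAG2 (0.11, limma adjusted p = 0.0635) and ESPL1 (0.21, 0.130) did not pass. With the culture block as well, 0 of 10 passed, with adjusted p from 0.0533 for PDS5B to 0.280 for STAG1, in a fit on 10 libraries that was added after seeing the data. PDS5A ran from 0.0482 to 1 and PDS5B from 0.0132 to 0.980 over 19 alternatives. In the 5 cultures other than control culture 3, SMC1A, SMC3, STAG2, PDS5B, NIPBL and ESPL1 were each higher in polysomal RNA in every culture, as 21.9% of all genes were. With any other replicate left out instead, 0 of 10 passed. Without RBMX replicate 2, 0 of 10 had an unadjusted p under 0.05, against 2181 of 14676 genes. The smallest limma adjusted p of a cohesin gene was then 0.337.

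Within the RBMX cultures alone, the polysomal libraries were all above the total libraries for 6 of 10 genes (SMC1A, SMC3, STAG2, PDS5A, PDS5B and NIPBL), as for 14.6% of all genes. None of the 10 passed in a fit on these 6 libraries (1.34% of all genes did), with adjusted p from 0.117 for NIPBL to 0.463 for STAG1. Within the control cultures alone 0 of 10 passed (0.0818% of all genes did), with differences from -0.02 for WAPAL to 0.28 for SMC1A.

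Whether RBMX changed the polysomal share of cohesin mRNAs was tested as the difference between its effect in polysomal RNA and in total RNA. None of the 10 genes passed (limma), against 0.0204% of all genes, and 0 had an unadjusted p under 0.05, against 0.6%. The difference was above 0 for 9 of 10, against 49.2% of all genes, with a median of 0.11, and below 0 for ESPL1 at -0.03. It was 0.17 for SMC3 (95% interval -0.62 to 0.95), 0.16 for WAPAL (-0.29 to 0.62), 0.14 for NIPBL (-0.24 to 0.53) and 0.10 for SMC1A (-0.53 to 0.73). Without control replicate 3 the median of the 10 was 0.03, and every adjusted p over the alternatives was 1 after rounding.

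Ratios of FPKM within a library show whether partner genes kept their proportions. The 6 pairs were chosen after the values were seen, so they are given as a description, and no share of other gene pairs was computed. None of 18 exact permutation tests on these ratios passed after Benjamini-Hochberg adjustment (smallest adjusted p = 0.257). None could have passed, because 3 against 3 libraries cannot go below 0.1 unadjusted and 6 cultures cannot go below 0.03125. These tests therefore decide nothing about the ratios. STAG2 had 4.15 to 5.49 times the FPKM of STAG1 over the 12 libraries, and PDS5A 3.46 to 4.27 times that of PDS5B. The SMC1A to SMC3 ratio ran from 1.71 to 2.45 and had its highest value in control polysomal replicate 3. The STAG2 to SMC3 ratio was 1.48, 1.52 and 1.64 in control and 1.24, 1.41 and 1.38 in RBMX total RNA. In polysomal RNA that ratio was 1.37, 1.44 and 1.45 in control and 1.15, 1.14 and 1.29 in RBMX replicates. For this pair control replicate 3 did not lie below the other control replicates, the RBMX and control libraries did not overlap in either fraction, and the ratio was lower in polysomal than in total RNA in 6 of 6 cultures. The RAD21 to SMC3 ratio was 2.14, 2.12 and 2.07 in control and 1.79, 2.02 and 2.00 in RBMX total RNA, without overlap, and it overlapped in polysomal RNA. The WAPAL to NIPBL ratio, releaser to loader, was 2.27, 2.35 and 2.12 in control total RNA and 2.07, 2.00 and 2.00 in control polysomal RNA. In RBMX cells it was 2.17, 2.54 and 2.42 in total RNA and 2.16, 2.12 and 2.19 in polysomal RNA. It was lower in polysomal RNA in 6 of 6 cultures, by a small margin in RBMX culture 1.

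**Figure D4:**
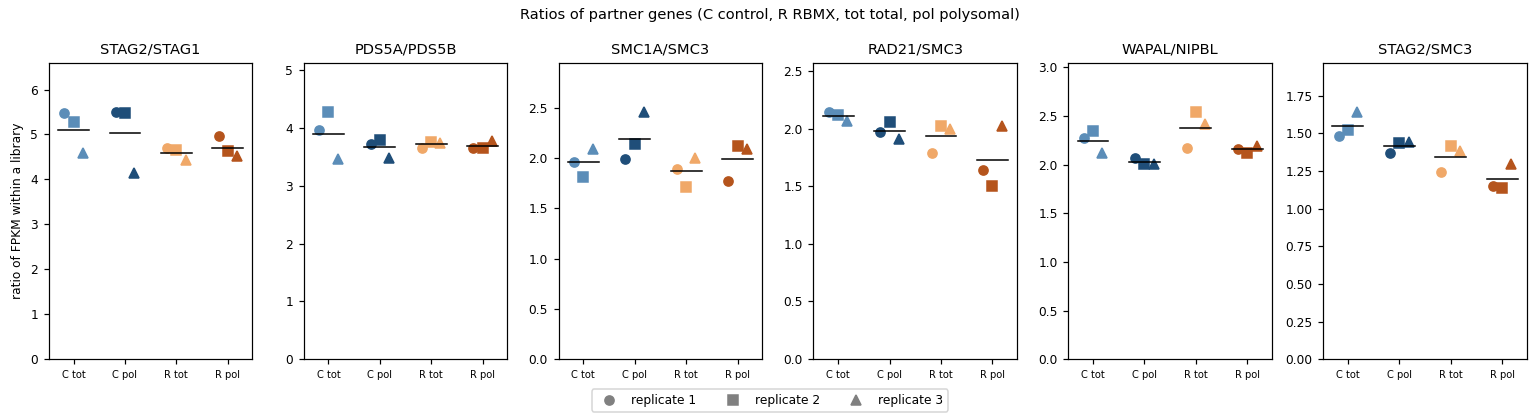
Ratio of the FPKM of partner genes within a library (vertical axis, starting at 0) for 6 pairs, in control (C) and RBMX (R) total (tot) and polysomal (pol) RNA; each symbol is 1 library and the line the mean of 3. The pairs were chosen after the values were seen. The STAG2 to SMC3 ratio is below the control libraries in every RBMX library of both fractions. The WAPAL to NIPBL ratio is lower in polysomal than in total RNA in each culture.

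The wider cohesion machinery showed no gene past the threshold either. Of 17 other cohesion factors, among them acetyltransferases, replication fork proteins and shugoshins, 0 passed in total or polysomal RNA with RBMX, 0 between polysomal and total RNA, and 0 for the difference of the effects. Their median log2 fold change with RBMX was 0.05 in total and 0.15 in polysomal RNA, and without control replicate 3 it was -0.03 and -0.06, again with 0 past the threshold. Unadjusted p-values (limma) were under 0.05 in total RNA for 3 of the 17 that were higher and 2 that were lower with RBMX. Of all genes 7.93% and 10.8% were. In polysomal RNA this held for 2 higher and 0 lower, against 5.16% and 6.53% of all genes. DDX11, a helicase that acts in cohesion at replication forks, had the largest fold change of the list in total RNA. Its FPKM there was 17.9, 15.3 and 19.7 in control and 28.6, 26.2 and 22.2 in RBMX replicates (0.52, limma adjusted p = 0.176). The groups did not overlap, with RBMX higher, as for 11.9% of all genes. DDX11 had 0.39 in polysomal RNA (limma adjusted p = 0.417). Without control replicate 3 DDX11 was at 0.60 and 0.50 (limma adjusted p = 0.126 and 0.251). CHTF18, of the alternative clamp loader, followed with 0.45 in total RNA (limma adjusted p = 0.299). PTTG1, securin, the inhibitor of separase, had the largest value in polysomal RNA at -0.44 (limma adjusted p = 0.551), where RBMX replicate 2 was at 105 FPKM and the other RBMX replicates at 187 and 206. Without control replicate 3 the largest value in polysomal RNA after DDX11 was that of the shugoshin gene SGOL2, at -0.49, and SGOL2 went from -0.32 to -0.50 in total RNA (limma adjusted p = 0.119), while PTTG1 was at -0.31. PTTG1 and CHTF18 also had the largest differences between the effects, at -0.38 and -0.23. Between polysomal and total RNA TIMELESS (0.24, limma adjusted p = 0.408) and ESCO2 (-0.16, 0.611) differed most, ESCO2 by -0.10 without control replicate 3. TIMELESS, a fork protection protein, passed with the culture block (0.24, limma adjusted p = 0.0200) and without control replicate 3 (0.23, 0.00856), and CTCF passed with the culture block (0.12, 0.0402). Of all genes 6.73% passed as higher with the culture block and 6.55% without control replicate 3.

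In related SMC complexes, 0 of 14 condensin and SMC5/6 genes passed in the same 4 comparisons. NCAPH2, a condensin II subunit, had 39.2, 36.5 and 39.8 FPKM in control and 54.6, 52.1 and 46.6 in RBMX total RNA (0.40, limma adjusted p = 0.170). The groups did not overlap, with RBMX higher, as for 11.9% of all genes. The polysomal value of NCAPH2 was 0.24 (limma adjusted p = 0.414). NCAPH, of condensin I, had 0.25 and 0.27 in the 2 fractions, and -0.05 and -0.06 without control replicate 3. Without it 11 of the 14 were lower with RBMX in each fraction, with medians of -0.08 and -0.11 and 0 past the threshold, and NCAPH2 was at 0.42 and 0.29. That replicate was the lowest control for 10 of the 14 in total and 11 in polysomal RNA, so their fold changes fell by construction. Between polysomal and total RNA the largest differences were -0.15 for NSMCE2 and 0.15 for NCAPD2. Without control replicate 3 SMC2 (0.12), SMC6 (0.16) and NCAPH (0.10) passed as higher in polysomal RNA (limma adjusted p = 0.0321, 0.0123 and 0.0478), as did 6.55% of all genes. The difference between the effects was largest for NCAPH2 at -0.16 and NSMCE4A at -0.11, and NSMCE4A was at -0.21 without control replicate 3.

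Cohesin genes are needed in dividing cells, and 13 proliferation genes were read beside them. None passed with RBMX in total or polysomal RNA, between the polysomal and total libraries, or for the difference of the effects. With RBMX their median log2 fold change was 0.15 in total and 0.10 in polysomal RNA, beside -0.03 and 0.07 for the cohesin genes. MCM2, a subunit of the replicative helicase, had the largest values, 0.44 and 0.42 (limma adjusted p = 0.480 and 0.607), followed by PCNA in total RNA (0.22) and CCNB1 in polysomal RNA (0.24). The direction of most of the 13 genes, though not of MCM2, turned on control replicate 3. It was the lowest control for 13 of 13 in each fraction, so leaving it out lowered each fold change by construction. MCM2 had 18.4 FPKM there in total RNA against 39.7 and 38.7 in control replicates 1 and 2. Without control replicate 3, 9 of 13 genes were lower with RBMX in total and 12 of 13 in polysomal RNA, with medians of -0.10 and -0.17 and 0 past the threshold. MCM2 was then at 0.09 and 0.06, PCNA at 0.11 in total RNA, and CCNB1 at -0.23 in polysomal RNA. Between polysomal and total RNA MKI67 had 0.42 (limma adjusted p = 0.0615), and it passed with the culture block (0.42, 0.0466) and without control replicate 3 (0.44, 0.0453). MCM2 had 0.14. The difference between the effects was 0.21 for MKI67 and -0.17 for PCNA, and -0.28 for PCNA without control replicate 3. Of the meiotic cohesin subunits only REC8 exceeded the minimum FPKM, with 1.51, 1.37 and 2.45 in control and 5.12, 4.11 and 2.03 in RBMX total RNA. RBMX replicate 3 lay within the control range, and the fold change was 0.73 (limma adjusted p = 0.270) in total and 0.82 (0.425) in polysomal RNA. Without control replicate 3 it was 0.90 and 1.11 (limma adjusted p = 0.185 and 0.257).

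All cohesin genes except ESPL1 moved together over the 12 libraries. The Pearson correlation of a gene's log2 values with the mean of the others was 0.90 to 0.96 for the other 9 and 0.32 for ESPL1. Without control culture 3 it was 0.69 to 0.95 and 0.13. The centred mean of the 10 genes was lowest in the polysomal and total libraries of control culture 3, at -0.37 and -0.32, and highest in control polysomal replicate 1 at 0.26. The 5 genes outside the group most like this mean over the 12 libraries were TP53BP2 (r = 0.993), MED14 (0.990), PSME4 (0.990), KIF1B (0.989) and SPAG9 (0.988), and without control culture 3 their r was 0.967 to 0.978. The 12 libraries share 6 cultures, and control culture 3 weighs on each r. The share of all genes at such r was not computed, so the correlations are not shown to be particular to cohesin genes.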

How the data were processed

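RNA of HEK293 cells carrying an RBMX plasmid or the mock empty vector was analysed in 12 libraries, 3 for each vector in total and in polysomal RNA. The authors deposited FPKM values for 25268 gene symbols. The submitters' processing notes name CASAVA 1.8, TopHat2 2.0.13, Cufflinks 2.2.1, Cuffnorm and hg19, without their roles or order. The methods of the paper describe alignment to hg38 and a test on counts, which were not used here. Number of fragments, strand handling and any scaling between libraries are not given in the sources used here. Depth is therefore unknown, and no limit of detection is stated. FPKM sums ran from 817528 to 1903320 per library, with 40.6% to 72.9% in small RNA genes. Of the 10 genes, SMC1A, RAD21, STAG1 and STAG2 overlap exons of genes on the opposite strand, whose fragments cannot be told apart without strand. RAD21 also overlaps the small RNA gene MIR3610 on the same strand. Fragments that fit both paralogs of a pair may also be split.

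The values were transformed to log2(FPKM + 1), on which fold changes of low genes are understated. Genes whose FPKM averaged 0.5 or more over the libraries, 14676 in all, were fitted with limma 3.58.1 (lmFit, eBayes with trend) in R 4.3.3, with Benjamini-Hochberg adjustment over all of them and a threshold of 0.05. RBMX and control were compared within the 6 libraries of a fraction. Polysomal against total RNA and the difference of the effects used all 12 libraries and 4 group means. Single genes were also tested by exact sign-flip permutation over 6 cultures, two-sided, with a smallest p of 0.03125, while 3 against 3 libraries cannot go below 0.1. The labels number the replicates without saying how they were grown, and the methods of the paper describe biological triplicates. The p-values measure the spread between these samples.

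The 10 genes and the lists of related genes were chosen with earlier results of these data known. The genes named are RBMX, the 10 cohesin genes, every listed gene past the threshold, the 2 of each list with the largest change in a comparison, and the 5 genes outside the group, small RNA genes left out, with the highest correlation over 12 libraries. Listed genes that passed only under an alternative are named as well. Total and polysomal libraries with the same number were treated as paired, because total RNA is described as a pool of the gradient's fractions. The labels also mention more than 1 dish for these extractions, and RBMX culture 2 showed hardly any correlation, so the pairing is not certain. Checked across genes, the deviations of paired libraries had correlations of 0.612, 0.691 and 0.846 for the 3 control cultures and 0.227, 0.0191 and 0.665 for the 3 RBMX cultures.

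As alternatives, the pseudocount was set to 0.1, the minimum to 0.1, 1 or none, and the fits were repeated with median-ratio rescaling, quantile normalization, no small RNA genes, eBayes without trend, a loess correction for transcript length and GC content, all 12 libraries in one fit, a replicate block, either vector alone, and each replicate left out. Positions, lengths and GC content came from GENCODE 29 on GRCh38, which is not the build of the notes, and 96.9% of the genes tested had a length. The fits were tested on simulated data in which 200 of 14676 genes were given a log2 difference of 1 or 2. At 1 the fits recovered 71.2% of them in total RNA, 68.3% in polysomal RNA, 93.5% between the fractions and 64% for the difference of the effects, and at 2 the shares were 94.8%, 96.0%, 95.7% and 94%. Smaller changes, such as those of the cohesin genes, were not simulated, and 2.96% to 4.24% of the calls were unchanged genes. Whether the simulated spread matched that of the real libraries is not shown, so these shares are not a detection rate for the cohesin genes. In the real polysomal libraries RBMX, at a log2 fold change of 3.25 (standard error 0.24), had a limma adjusted p of 0.0415, near the threshold. RAD21 had a standard error of 0.29 there. Plots used Python 3.11.15 and matplotlib 3.10.9.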

Additional observations from a re-analysis of the deposited data

How the results depend on the processing

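Of 700 values of the 10 cohesin genes under the alternatives, 646 kept their direction and their side of the threshold, 48 turned direction and 6 newly passed. The count of all genes past the threshold moved more. In total RNA the 24 genes became 62 with a minimum mean FPKM of 0.1, 77 without a filter, 60 with all 12 libraries in one fit and 13 with a replicate block, and 19 to 178 with each replicate left out, the most without RBMX replicate 3. In polysomal RNA the 7 genes became 14, 31, 22 and 3 under the same 4 alternatives, 2 without small RNA genes, and 9 to 126 with a replicate left out, again the most without RBMX replicate 3. Between polysomal and total RNA the 970 genes became 2584 with the culture as replicate block, 12 in control and 196 in RBMX libraries alone, and 40 to 2405 with a replicate left out, with 2405 without control replicate 3 and 72 at most without any other. The cohesin genes among them were 1 with the block and 0 to 5 with a replicate left out. For the difference of the effects the 3 genes became 5 with the block, 10 with the block and without control culture 3, 0 without small RNA genes, and 4 to 7 with a replicate left out. The cause of these shifts was not tested. Control and RBMX replicates share only a number: their deviations correlated with -0.174 to 0.344 across genes, and the block on that number gave the 13 and 3 genes above and 0 cohesin genes. With all 12 libraries the culture block changed no other call among the cohesin genes than that of SMC1A, and without control culture 3 it took the 5 cohesin genes to 0.

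Correction for length and GC content turned the total RNA fold change positive for SMC1A (0.0332), RAD21 (0.0309), STAG2 (0.0205), PDS5B (0.107), WAPAL (0.106) and NIPBL (0.0618) and the polysomal one for STAG2 (0.0991), and set the difference of the effects to -0.00151 for PDS5B. WAPAL in total RNA, at -0.000135, was 0.000117 with a pseudocount of 0.1 and 0.00329 with median-ratio rescaling. With quantile normalization the polysomal fold change was -0.0240 for RAD21 and -0.0123 for PDS5A. In control libraries alone the polysomal minus total difference was -0.00491 for STAG2 and -0.0153 for WAPAL. With the culture block and without control culture 3 the difference of the effects was -0.00833 for RAD21, -0.0450 for PDS5B and 0.00777 for ESPL1.

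With each replicate left out, directions turned in total RNA for SMC1A (-0.18 to 0.0883), SMC3 (-0.16 to 0.19), RAD21 (-0.30 to 0.0739), STAG1 (-0.0926 to 0.0965) and WAPAL (-0.10 to 0.0840). In polysomal RNA they turned for SMC1A (-0.13 to 0.21), SMC3 (-0.0768 to 0.40), RAD21 (-0.31 to 0.20), STAG1 (-0.0816 to 0.15), STAG2 (-0.31 to 0.14), PDS5A (-0.20 to 0.14), PDS5B (-0.16 to 0.10), WAPAL (-0.0119 to 0.27) and NIPBL (-0.0877 to 0.16). The difference of the effects turned for SMC1A (-0.0523 to 0.20), RAD21 (-0.00833 to 0.16), PDS5B (-0.0450 to 0.13) and ESPL1 (-0.15 to 0.0416). With 3 libraries a group and unknown depth, small changes of single cohesin genes could not be told from 0.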

Other observations

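The meiotic cohesin subunits SMC1B, STAG3 and RAD21L1 were below the minimum mean FPKM and entered no comparison. SMC1B ranged from 0.0538 to 0.127 FPKM and STAG3 from 0.0930 to 0.260 over the 12 libraries. RAD21L1, the germline kleisin, was at 0.0972, 0.0761 and 0.111 in control and at 0.235, 0.316 and 0.357 in RBMX total RNA. In polysomal RNA it was at 0.0939, 0.0573 and 0.0784 in control and at 0.325, 0.238 and 0.287 in RBMX replicates. Every RBMX library was above every control library in both fractions, at a level of less than 1 FPKM where the number of fragments is unknown. Of the genes tested, which leave out RAD21L1, 11.9% in total and 10% in polysomal RNA were higher with RBMX without overlap. With the minimum lowered to a mean FPKM of 0.1, RAD21L1 did not pass (limma adjusted p = 0.119 in total and 0.168 in polysomal RNA). It was singled out after its values were seen.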
